A study of Rattus norvegicus with 15 samples.

Results

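The 10 genes followed here are those that hepatocytes around the central vein use to receive, restrain or answer Wnt signals, read across rat hepatocytes sorted by DNA content. They were Axin2, Nkd1, Tcf7, Lgr5, Rnf43, Znrf3, Tbx3, Lect2, Ctnnb1 and Apc, and a gene was counted as measured where a probe carrying its name was well above background, a flag set by the array software, on at least 1 array. Of the 10 genes 9 had such a named probe (13 probes), 8 were measured on at least 1 array, and 7 were measured on at least 5 arrays and entered the tests, among 17030 tested features. Lgr5 had a probe that was above background on 0 of 15 arrays, Nkd1 was above background on 2c arrays only, and no probe was named Tcf7.

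The samples were hepatocytes of female Wistar rats, stained with the DNA dye Hoechst33342 and sorted into 2c, 4c and 8c fractions, where 2c is the DNA content of a diploid cell before replication. Each of 5 experiments gave 1 array per fraction, so n = 5 in each group and 15 arrays in all. The rats were 12, 14, 6, 5 and 6 weeks old in experiments 1 to 5. The labels do not state the number of animals per experiment or how the gates were set, and DNA content alone does not separate a tetraploid cell from a diploid one after replication.

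Wnt proteins released by endothelial cells of the central vein bind Frizzled and Lrp receptors on the hepatocytes next to them. There they stop a destruction complex, which includes Axin and Apc, from degrading beta-catenin (Ctnnb1), which then switches on genes with Tcf/Lef factors. R-spondins bound to Lgr receptors raise the signal by removing Rnf43 and Znrf3, ubiquitin ligases that clear Frizzled from the membrane. The pathway is best known in liver for zonation, since it keeps glutamine synthetase (Glul) and other pericentral genes on.

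The sequences of 5 probes are shown because the results turn on them, all in lower case and 5′ to 3′ as the array files give them. Axin2 was read by 1 probe at chr10:98321105-98321164 of the rat assembly rn4. The Nkd1 probes A_64_P082678 (chr19:19759545-19759604) and A_44_P1084435 (chr19:19758807-19758866) detect the same transcript at separate places, and the Tbx3 probes A_64_P137823 (chr12:38155887-38155946) and A_44_P1111586 (chr12:38153877-38153936) differ in the transcript they were designed on. The files list the positions of the Nkd1 and Tbx3 probes in descending order and that of Axin2 in ascending order.
Axin2 A_44_P262371: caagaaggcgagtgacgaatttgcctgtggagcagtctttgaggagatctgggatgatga
Nkd1 A_64_P082678: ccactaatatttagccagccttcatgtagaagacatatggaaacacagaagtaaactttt
Nkd1 A_44_P1084435: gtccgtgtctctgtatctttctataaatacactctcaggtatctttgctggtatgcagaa
Tbx3 A_64_P137823: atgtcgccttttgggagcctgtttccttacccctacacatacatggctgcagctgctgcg
Tbx3 A_44_P1111586: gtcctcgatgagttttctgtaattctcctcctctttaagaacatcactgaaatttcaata

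Promoter windows from RefSeq, 250 bases before to 50 after a gene's start in the assembly GRCr8, were available for 7 of the 10 genes. The core motif of Tcf/Lef factors was searched as CTTTGA and, for the other strand, TCAAAG, which cannot overlap each other. It was present in the windows of 4 of the 7, Axin2, Nkd1, Lect2 and Tcf7, and in 16.1% of 33469 rat promoter windows of the same length. The longer form CTTTGAT or ATCAAAG was in 3.63% of those windows and in each of these 4. The windows of Ctnnb1, Rnf43 and Apc held no match. These 4 windows are shown with the matches in capitals: Axin2 (chr10:94398535-94398834, plus strand), Nkd1 (chr19:34722797-34723096, minus strand), Lect2 (chr17:8049784-8050083, plus strand) and Tcf7 (chr10:36954230-36954529, minus strand). A match is a run of letters and not a shown binding site.
Axin2 promoter: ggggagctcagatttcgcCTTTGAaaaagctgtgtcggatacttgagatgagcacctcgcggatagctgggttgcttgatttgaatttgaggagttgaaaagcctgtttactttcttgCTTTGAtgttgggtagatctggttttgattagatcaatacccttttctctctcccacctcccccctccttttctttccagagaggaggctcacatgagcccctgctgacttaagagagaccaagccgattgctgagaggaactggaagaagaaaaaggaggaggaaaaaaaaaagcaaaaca
Nkd1 promoter: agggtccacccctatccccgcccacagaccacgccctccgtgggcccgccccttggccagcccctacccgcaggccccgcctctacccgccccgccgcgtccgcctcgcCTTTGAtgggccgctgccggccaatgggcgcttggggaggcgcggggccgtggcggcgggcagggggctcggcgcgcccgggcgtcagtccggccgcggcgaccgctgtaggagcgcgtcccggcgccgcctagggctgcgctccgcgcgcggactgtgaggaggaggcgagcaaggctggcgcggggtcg
Lect2 promoter: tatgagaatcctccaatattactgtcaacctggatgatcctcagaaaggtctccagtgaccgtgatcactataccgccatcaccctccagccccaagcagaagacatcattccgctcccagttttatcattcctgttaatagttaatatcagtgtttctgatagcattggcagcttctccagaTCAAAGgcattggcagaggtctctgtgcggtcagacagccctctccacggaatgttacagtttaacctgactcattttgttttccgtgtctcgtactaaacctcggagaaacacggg
Tcf7 promoter: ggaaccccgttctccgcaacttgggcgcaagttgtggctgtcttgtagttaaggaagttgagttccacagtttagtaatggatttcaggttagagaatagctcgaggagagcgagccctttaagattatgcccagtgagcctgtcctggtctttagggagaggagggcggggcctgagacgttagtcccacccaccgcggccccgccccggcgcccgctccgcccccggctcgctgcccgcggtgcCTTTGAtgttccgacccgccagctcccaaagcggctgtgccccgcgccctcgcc

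Levels below are log2 signals relative to the 75th percentile of the same array, taken over the 16194 probes that were well above background on all arrays, so a level of 0 is that percentile. A difference of -1 is a 2-fold lower signal relative to that point. Levels of different probes are not comparable with each other. On each array 39.5 to 47.3% of 45598 probes were well above background, and 0 spots were saturated. Differences were tested with limma, keeping the experiment as a block, and a gene passed at a Benjamini-Hochberg adjusted p under 0.05 over all 17030 features. The series text calls the 5 experiments independent. With the experiment as a block, shifts of whole experiments are removed. The p-values then rest on how far fraction differences varied between these experiments, and cover only these samples.

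In 8c against 2c hepatocytes 399 features passed (2.34%), 138 of them higher (0.81%) and 261 lower (1.53%). With the percentile taken over all probes instead, 224 were higher and 189 were lower. Of the 7 tested members 0 passed. All 7 had a difference below 0, with a median of -0.35 against -0.02 over all features, of which 55.1% were below 0. At an unadjusted p under 0.05 stood 4 of the 7, Axin2, Tbx3, Znrf3 and Lect2, against 14.98% of all features. In 4c against 2c 215 features passed (1.26%), 45 higher (0.264%) and 170 lower (0.998%), or 70 and 108 with the percentile over all probes. Again 0 of the 7 members passed and all 7 had a difference below 0, with a median of -0.32 against -0.03 over all features, 56.9% of which were below 0. Unadjusted p-values under 0.05 were found for 3 of the 7, Axin2, Tbx3 and Znrf3, against 15.9% of all features. Both comparisons share the 2c arrays. In 8c against 4c 109 features passed (0.64%), 107 higher (0.628%) and 2 lower (0.0117%), and of the members 0 passed the adjusted test and 0 the unadjusted one, with 5 differences below and 2 above 0 and adjusted p-values from 0.826 to 0.997.

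**Figure D1:**
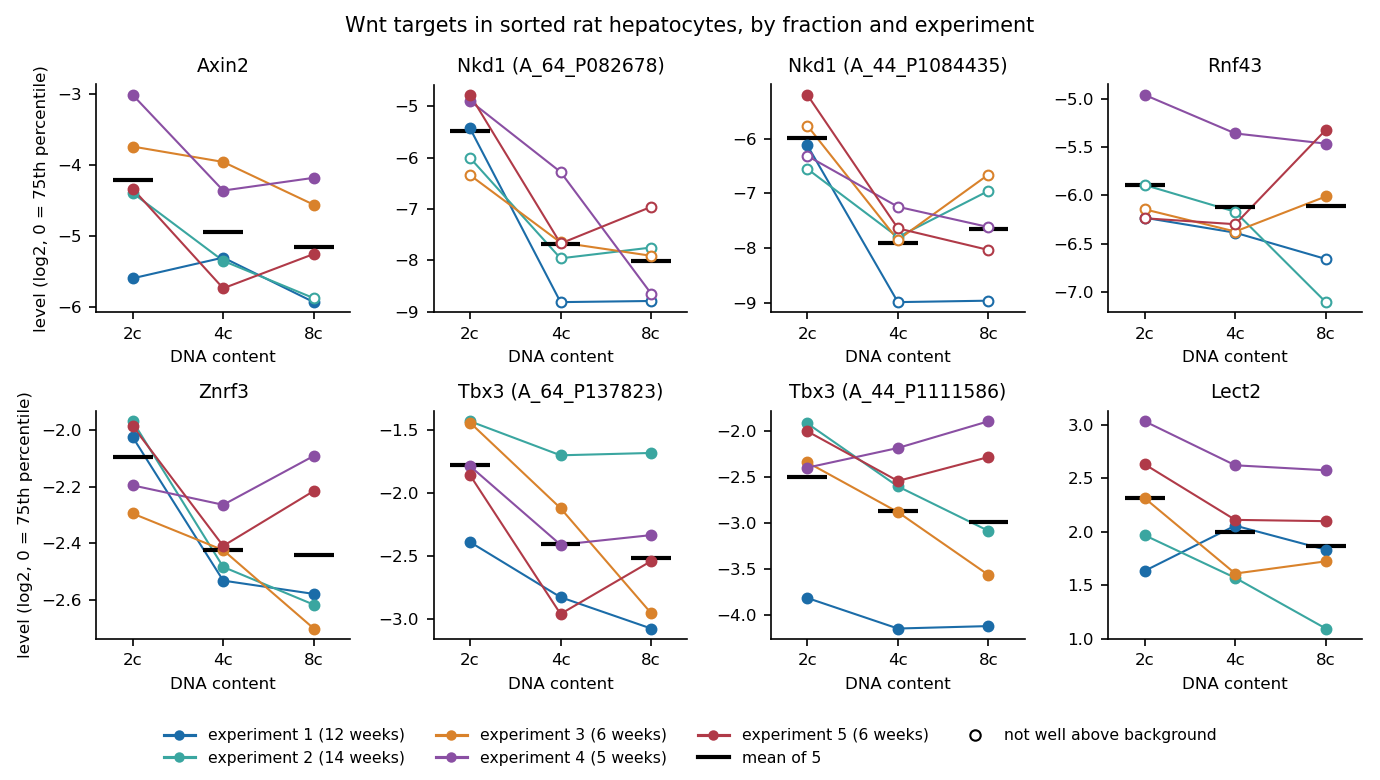
Level (log2, 0 is the array's 75th percentile) of Axin2, Nkd1, Rnf43, Znrf3, Tbx3 and Lect2 in the 2c, 4c and 8c fraction, 1 panel per probe. Each panel has 1 line per experiment and a bar at the mean of 5 arrays, and open points were not well above background. Ctnnb1, Apc, Lgr5 and Tcf7 are not drawn. The 2c point of experiment 1 is the lowest 2c point for Axin2 (-5.60) and Lect2 (1.63), and every 4c and 8c point of Nkd1 is open.

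Axin2, Nkd1, Rnf43 and Znrf3 are negative feedback genes, which beta-catenin switches on and which in turn damp the signal. Axin2 is a scaffold of the destruction complex and the most used readout of active Wnt signalling. Its levels in 2c were -5.60, -4.40, -3.74, -3.01 and -4.34 in experiments 1 to 5. In 4c they were -5.31, -5.35, -3.96, -4.36 and -5.74. In 8c they were -5.94, -5.88, -4.56, -4.18 and -5.26, the array of experiment 2 not being above background. Axin2 was lower in 8c than in 2c in 5 of 5 experiments (7.96% of all features were). It was lower in 4c than in 2c in 4 of 5, and the ranges of the fractions overlapped. The fitted difference between 8c and 2c was -0.95 (SE 0.23, 95% interval -1.47 to -0.43), a 1.93-fold lower signal, with an adjusted p of 0.0724 in limma. Between 4c and 2c it was -0.73 (SE 0.23, limma adjusted p = 0.175). Experiment 3 was split, with its 2c and 4c arrays on slide 1 and its 8c array on slide 2. Within slide 1, which held experiments 1 and 2 complete, the 8c difference of Axin2 was -0.89, and within slide 2 (experiments 4 and 5 complete) it was -1.04. A single array moved the call, since without the 2c array of experiment 1 the difference was -1.15 and the adjusted p 0.0302. Axin2 was dim, with mean signals on the linear scale of 31, 19 and 18 in 2c, 4c and 8c. With normexp background correction the 8c difference was -0.40, so its size depended on how background was subtracted.

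Nkd1, a cytoplasmic inhibitor of Dishevelled induced by Wnt signals, was near the limit of detection. With the probe A_64_P082678 the 2c levels were -5.43, -6.00, -6.34, -4.89 and -4.78, those of experiments 1, 4 and 5 being above background. The 4c levels were -8.81, -7.96, -7.65, -6.28 and -7.67, and the 8c levels -8.79, -7.75, -7.91, -8.65 and -6.96, all of them not well above background. Each dim array was set no lower than the lowest level of any probe above background on it. The 2c mean was then 1.78-fold higher than that of 8c and 1.65-fold higher than that of 4c. That lowest level is not the detection limit of this probe. In 4c of experiment 4 the probe was not above background at -6.28, while the lowest level was -6.49. The 2c mean also takes the arrays of experiments 2 and 3 at signals that were not above background. These folds are therefore not strict bounds. The probe A_44_P1084435 was above background on the 2c arrays of experiments 1 and 5 only. Its signals were -6.55 to -5.20 in 2c, -8.99 to -7.24 in 4c and -8.96 to -6.66 in 8c. Nkd1 did not enter the tests.

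The ligase Rnf43 was dim, above background on 2, 2 and 3 arrays of 2c, 4c and 8c. Its 2c levels were -6.23, -5.89, -6.14, -4.96 and -6.24 and its 8c levels -6.66, -7.10, -6.01, -5.47 and -5.32, so 8c was lower in 3 experiments and higher in 2. The difference was -0.22 (SE 0.25, interval -0.78 to 0.34, limma adjusted p = 0.741), within slide 1 -0.82 and within slide 2 0.20. In 4c it was also -0.22, lower in 5 of 5 experiments (8.6% of all features were), with an adjusted p of 0.709.

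Znrf3, the related ligase, was above background on all 15 arrays with its named probe. A further probe, A_44_P1157673, found through its description, was above background on 0 arrays. Levels of the named probe in 2c were -2.03, -1.97, -2.29, -2.20 and -1.99. Levels in 4c were -2.53, -2.48, -2.42, -2.26 and -2.41, and in 8c -2.58, -2.62, -2.70, -2.09 and -2.22. The 4c array was lower than the 2c array in 5 of 5 experiments (8.6% of all features were). The ranges of 2c and 4c met only at the 2c array of experiment 3 and the 4c array of experiment 4. The 8c arrays of experiments 4 and 5 lay within the 2c range. Its difference was -0.35 (SE 0.11, limma adjusted p = 0.154) for 8c and -0.33 (SE 0.11, limma adjusted p = 0.181) for 4c. The 8c difference was -0.54 within slide 1 and -0.06 within slide 2, a change of more than 1.5 times. Without the 6 arrays that carried pancreatic acinar transcripts it was -0.04. The 8c arrays then left were those of experiments 4 and 5, the same as within slide 2 but for experiment 3.

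**Figure D2:**
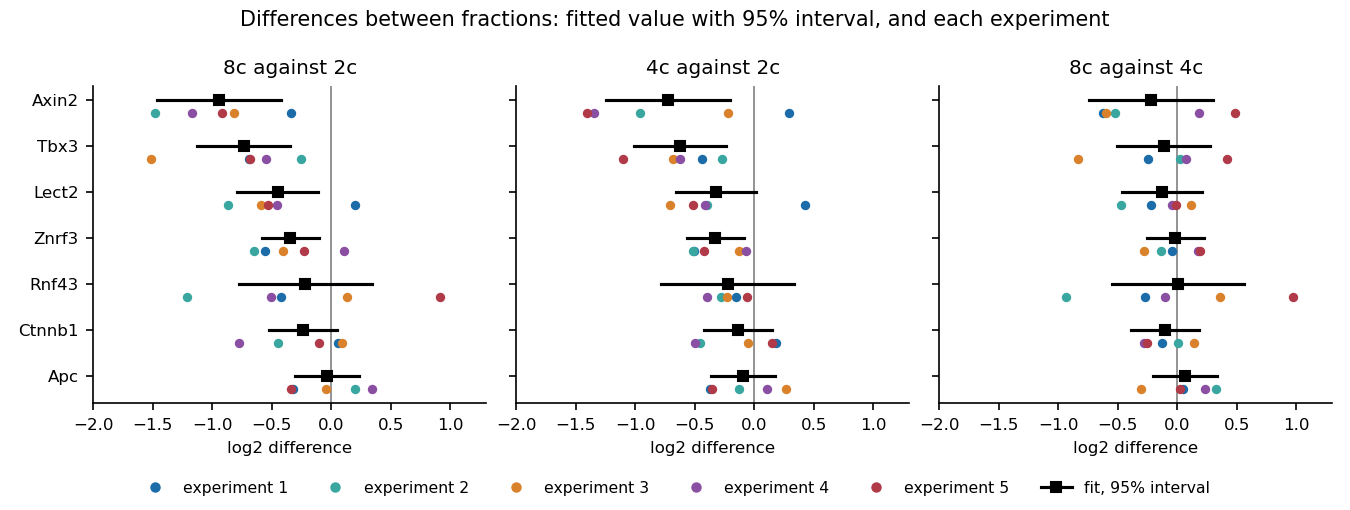
Log2 difference of the 7 tested members in the 3 pairwise comparisons of fractions; squares and bars are the fitted value with its 95% interval, and points below them the 5 experiments. The intervals of Axin2, Tbx3, Lect2 and Znrf3 for 8c against 2c lie below 0 before adjustment, and none of the members passed after it.

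Among the genes downstream of the signal, Tbx3 encodes a T-box repressor that marks pericentral hepatocytes. With the probe A_64_P137823 the 2c levels were -2.39, -1.43, -1.44, -1.79 and -1.86. The 4c levels were -2.83, -1.70, -2.12, -2.41 and -2.96, and the 8c levels -3.08, -1.68, -2.96, -2.34 and -2.54. Tbx3 was lower in 8c and in 4c than in 2c in 5 of 5 experiments (7.96% and 8.6% of all features were), and the ranges of the fractions overlapped. The difference was -0.74 for 8c (SE 0.18, interval -1.13 to -0.35), a 1.67-fold lower signal, with a limma adjusted p of 0.0628, and -0.62 for 4c (adjusted p = 0.129). The 8c difference was -0.52 within slide 1 and -0.62 within slide 2. Experiment 3, whose 2c and 8c arrays lay on different slides, had the largest (-1.52), and without it the fitted difference was -0.54. The probe A_44_P1111586 gave -0.50 (SE 0.22, limma adjusted p = 0.32 over 20926 probes), with experiment 4 higher in 8c than in 2c.

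Lect2, a secreted protein of hepatocytes and a direct beta-catenin target in mouse liver, had 2c levels of 1.63, 1.97, 2.31, 3.03 and 2.63. In 4c they were 2.06, 1.57, 1.61, 2.62 and 2.11, and in 8c 1.83, 1.096, 1.72, 2.57 and 2.10. Both 4c and 8c were lower than 2c in 4 of 5 experiments, and in experiment 1 both were higher. The 8c against 2c difference was -0.45 (SE 0.15, interval -0.79 to -0.11, limma adjusted p = 0.194) and -0.46 and -0.49 within the slides. The adjusted p was 0.0436 without experiment 1 (difference -0.61) and 0.0157 without its 2c array alone (-0.62).

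Ctnnb1, beta-catenin itself, gave -0.24 for 8c against 2c with its named probe (SE 0.13, limma adjusted p = 0.431), from 2c levels of -3.39 to -2.66 and 8c levels of -3.61 to -3.25. Its further probes, found through their description, gave -0.11 and -0.06. They were brighter, with mean 2c levels of -0.55 and 1.67 against -3.13. Being listed under a transcript name, they did not enter as Ctnnb1, whose counts rest on the dimmer named probe. Apc, a tumour suppressor and part of the destruction complex, gave -0.03 (SE 0.12, interval -0.30 to 0.24, limma adjusted p = 0.935). Its 2c levels were -4.03 to -3.30 and its 8c levels -4.04 to -3.63. The sign for Apc turned with 3 other scalings of the arrays (0.05, 0.01 and 0.07). Of its other probes A_44_P276106 was above background on 10 arrays with a difference of -0.06, and A_44_P352446, whose position the files list in the opposite order, was above background on 0.

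Lgr5, the R-spondin receptor that marks the innermost pericentral hepatocytes, had levels of -7.74 to -7.24 in 2c, -8.72 to -6.55 in 4c and -8.70 to -7.62 in 8c, none of them above background. No difference in Lgr5 was therefore measurable. The factor Tcf7 was found by description with 3 probes, of which A_44_P497262 was above background on all 15 arrays. Its levels were -5.98 to -4.87 in 2c, -5.71 to -3.65 in 4c and -6.04 to -5.06 in 8c, and its differences were -0.20 for 8c and 0.26 for 4c against 2c (limma adjusted p = 0.78 and 0.682). The other Tcf7 probes were above background only on the 3 arrays of experiment 4. Tcf7 is also a factor of T cells. Of 14 lymphocyte genes with a probe 8 were above background on 0 arrays of 2c, among them Cd3e, Cd3g and Lck, while Cd3d and Cd4 were above background on all 15 arrays.

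**Figure D3:**
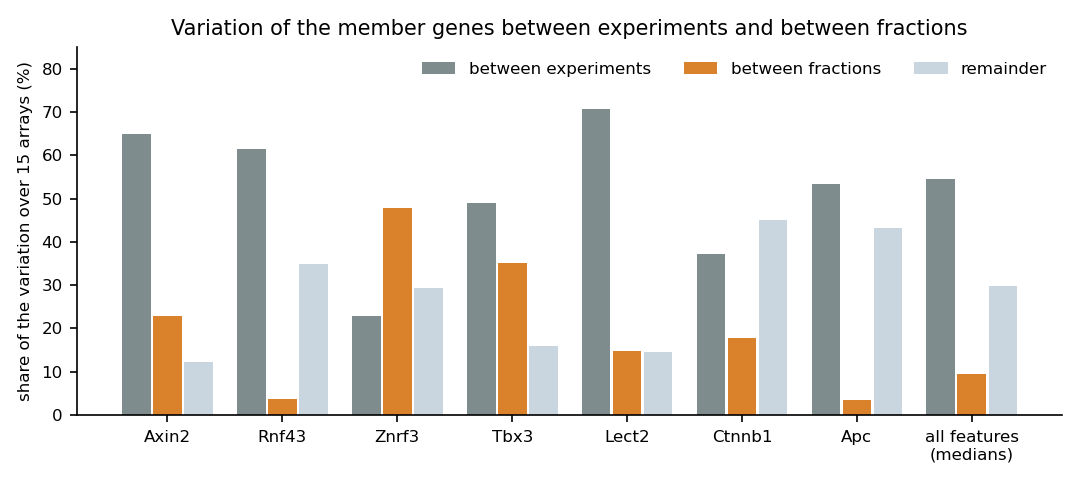
Share of the variation over 15 arrays that lay between experiments, between fractions and in the remainder (percent), for the 7 tested members and, as separate medians, all 17030 features. Znrf3 had 47.9% and Tbx3 35.1% between fractions, against a median of 9.39% over all features, and Lect2 70.7% between experiments.

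For most members a larger share of the variation lay between experiments than between fractions. The shares are not adjusted for there being 5 experiments and only 3 fractions, which favours the experiments. For Axin2 64.9% of the variation over 15 arrays lay between experiments and 22.8% between fractions, and for Lect2 70.7% and 14.8%. Znrf3 was the exception with 22.8% and 47.9%, and Tbx3 had 49.0% and 35.1%. The medians over all features were 54.6% and 9.39%. Averaged over its 3 fractions, Axin2 was highest in experiment 4 at 5 weeks (-3.85) and in experiment 3 at 6 weeks (-4.09), and lowest in experiment 1 at 12 weeks (-5.61). Experiment 5, also at 6 weeks, had -5.11. Whether the 8c against 2c difference changed with age was tested as an interaction, in which 0 features passed (0%). Among the members Rnf43 (-0.13 per week) and Znrf3 (-0.06 per week) had unadjusted p-values of 0.0398 and 0.0385, both 0.958 after limma's adjustment. Both older experiments lay on slide 1 and experiments 4 and 5 on slide 2, so age and slide cannot be told apart here.

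Some patterns were close to that of the pericentral gene Glul. After the mean of each experiment was removed, Axin2 was correlated with Glul at r = 0.81, Tbx3 at 0.86, Znrf3 at 0.85, Lect2 at 0.74 and Rnf43 at 0.33, over 15 arrays that share their scaling and their fractions. Among 17029 features Glul ranked 64th for Axin2, 79th for Tbx3, 140th for Znrf3 and 131st for Lect2, and 2121st for Rnf43. The features most like Axin2 were Atl3 (0.94), Crim1 (0.91) and the hepatocyte transporter Slco1b2 (0.90). For Tbx3 they were Rpp25 (0.98), Hist1h2bq (0.94) and Rnls (0.93), and for Znrf3 they included Dpysl2 and Nubpl (each 0.95). Lss, an enzyme of cholesterol synthesis, led for Lect2 (0.91), followed by Adam11 (0.90) and Psmc3ip (0.89). Rabl2 (0.92), Tex38 (0.87) and Pbx3 (0.86) were nearest to Rnf43. Znrf3 and the periportal urea cycle enzyme Ass1 ran opposite, at -0.92. Albumin (Alb) was correlated with Tbx3 at 0.60 and Axin2 at 0.53, and with Znrf3 at 0.26, Lect2 at 0.20 and Rnf43 at -0.26. Whether the likeness is particular to pericentral genes was not tested.

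**Figure D4:**
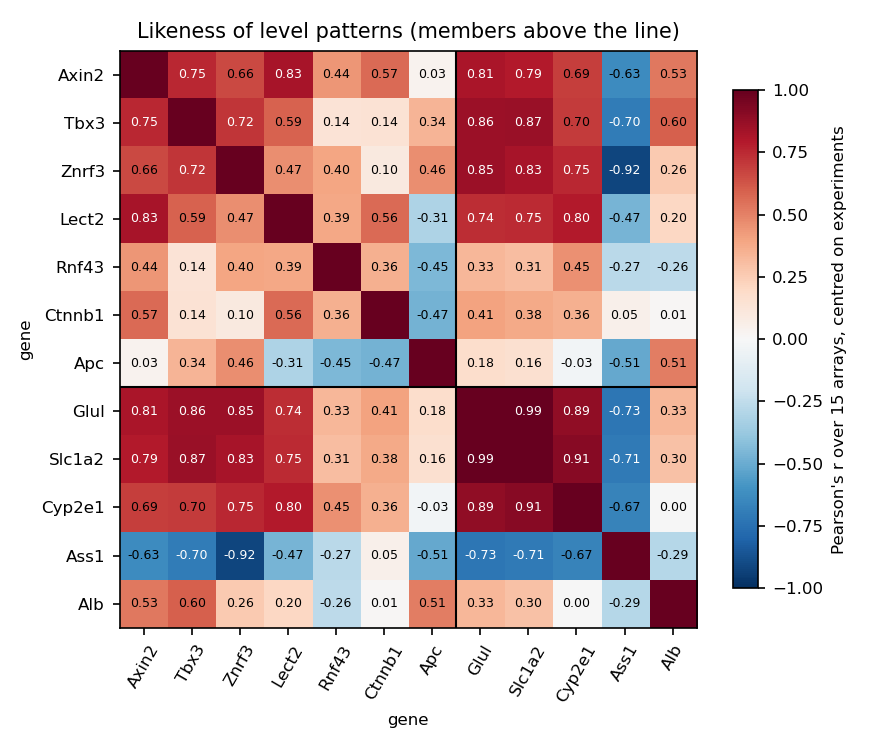
Pearson correlation over 15 arrays, centred on the experiment, between the 7 tested members and 5 reference genes; colour runs from -1 to 1 and each cell prints its value. Axin2, Tbx3, Znrf3 and Lect2 correlate with Glul at 0.74 to 0.86, while Apc lies at 0.18.

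Glul, which in liver is confined to the hepatocytes next to the central vein, fell from 3.92 ± 0.51 in 2c to 1.71 ± 0.68 in 4c and 0.68 ± 1.20 in 8c (mean ± SD, n = 5). The fall was -3.24 for 8c against 2c (SE 0.28, limma adjusted p = 0.00107) and -2.22 for 4c against 2c (adjusted p = 0.0142). The glutamate transporter Slc1a2 fell by 3.27 in 8c and fell by 2.24 in 4c (adjusted p = 0.00107 and 0.0143), with 3 of 5 arrays of 8c above background. Without experiment 2 or 5 neither passed in 4c, at adjusted p-values of 0.0598 to 0.14. The pericentral cytochrome Cyp2e1 fell by 0.51 in 8c (adjusted p = 0.0301) with -0.45 in 4c (adjusted p = 0.0689), and its 8c call ended without any single experiment (adjusted p = 0.0542 to 0.15). Of 19 tested pericentral genes other than the members 13 fell in 8c and 4 in 4c, with 0 rises, and the median differences were -0.76 and -0.52. Of the 18 that were above background on all 15 arrays, 12 fell in 8c and 3 in 4c. Of 21 periportal genes 5 rose in 8c and 2 in 4c, with 0 falls and medians of 0.22 and 0.31. Ass1 had 0.22 and 0.31 (adjusted p = 0.375 and 0.192) and albumin (Alb) -0.14 and -0.06 (adjusted p = 0.688 and 0.862). In RNA of a sorted fraction, fewer cells of a type and less RNA per cell cannot be told apart.

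The rest of the pathway was read from 5 lists with 91 further genes, of which 88 had a probe and 56 were tested. In 8c against 2c 1 rose and 2 fell, in 4c against 2c 2 rose and 1 fell, and in 8c against 4c 0 passed. That is 5.36% of the 56 genes in each comparison with 2c, against 2.34% and 1.26% of all features. Median differences were -0.02 and -0.05.

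**Figure D5:**
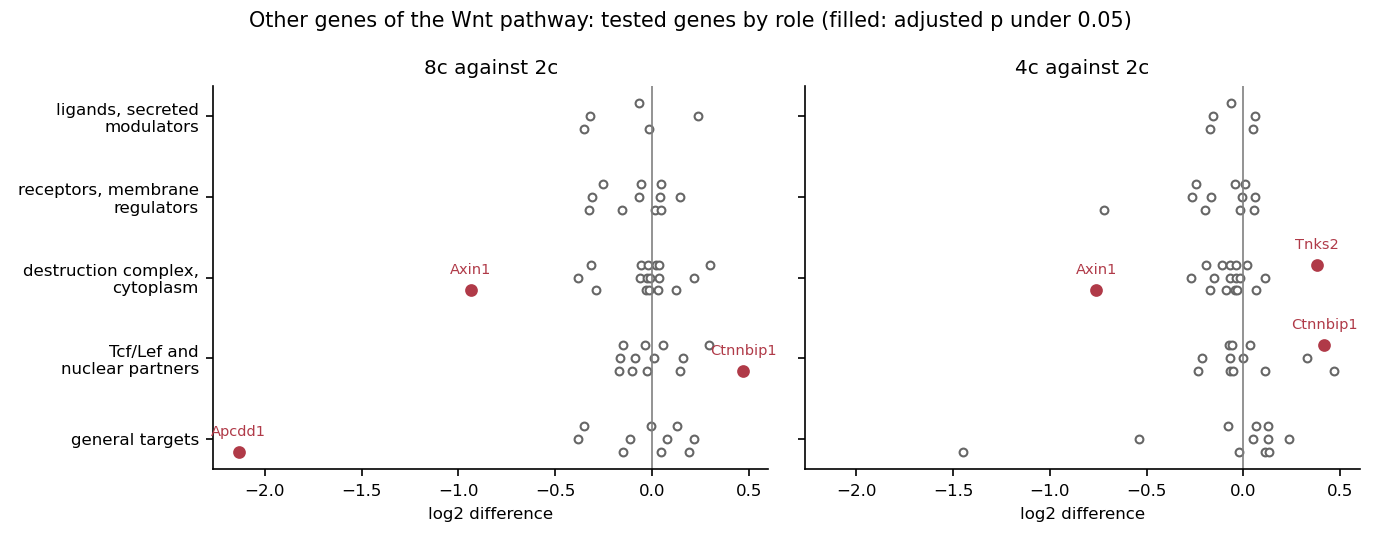
Log2 difference of the tested genes of 5 Wnt lists, by role, for 8c against 2c and 4c against 2c; filled points passed at an adjusted p under 0.05 and are named, and genes on 2 lists appear in both. Apart from Axin1, Apcdd1, Ctnnbip1 and Tnks2 none of the genes passed in these comparisons.

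Ligands and secreted modulators were mostly below detection. Of 23 listed genes 5 were tested (Wnt4, Wnt5b, Sfrp5, Notum and Porcn) and 0 passed in any comparison. Notum, a secreted enzyme that inactivates Wnt proteins, had -0.35 in 8c and 0.05 in 4c against 2c (limma adjusted p = 0.286 and 0.9). Porcn, which adds the lipid that Wnt proteins need for release, had -0.01 and 0.06 (adjusted p = 0.974 and 0.85). Wnt9b, an endothelial ligand of the central vein, was above background on 2 arrays and Rspo3, an R-spondin of the same cells, on 1.

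Of the receptors and membrane regulators 11 of 18 were tested and 0 passed. Fzd4, a Frizzled receptor, had -0.25 in 8c (SE 0.06, limma adjusted p = 0.0711) and -0.17 in 4c (adjusted p = 0.233). With the mean of its tested probes it had -0.43 and -0.52 (adjusted p = 0.0183 and 0.0194). Its partner Tspan12 had 0.05 and -0.02 (adjusted p = 0.826 and 0.922).

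In the destruction complex 18 of 21 listed genes were tested. Axin1, the constitutive Axin scaffold, had 2c levels of 0.02, 0.43, 0.53, 0.11 and 0.56. Its 4c levels were -0.32, -0.43, -0.61, -0.39 and -0.41, and its 8c levels -0.56, -0.43, -0.65, -0.88 and -0.52. Every 2c array lay above every 4c and 8c array, as for 0.887% of the tested features in 8c and 0.934% in 4c. Axin1 fell by 0.94 in 8c (SE 0.11, 1.91-fold, limma adjusted p = 0.00351) and by 0.76 in 4c (adjusted p = 0.0223). The 8c difference was -0.81 within slide 1 and -1.03 within slide 2, with adjusted p-values of 0.367 and 0.377. In 4c the adjusted p rose to between 0.0551 and 0.192 when experiment 2, 3 or 5 or 1 of 6 single arrays of them was left out. Tnks2, a tankyrase that marks Axin for degradation, rose in 4c by 0.38 (adjusted p = 0.0374), a call that ended without any single experiment (adjusted p = 0.0529 to 0.222). With the mean of its tested probes it had 0.038 (adjusted p = 0.91).

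Among 13 tested Tcf/Lef factors and nuclear partners (16 listed) Ctnnbip1 alone passed. It encodes a small protein that keeps beta-catenin from binding Tcf factors. Levels were -1.39, -1.82, -1.62, -1.61 and -1.73 in 2c, -1.18, -1.35, -1.04, -1.28 and -1.23 in 4c, and -0.98, -1.18, -1.06, -1.34 and -1.26 in 8c. Every 4c and 8c array lay above every 2c array, as for 0.382% and 0.476% of all features. Ctnnbip1 rose by 0.47 in 8c (SE 0.07, 1.39-fold, limma adjusted p = 0.00936) and by 0.42 in 4c (adjusted p = 0.0372). Averaged over the gene's probes the 8c difference was 0.40 with an adjusted p of 0.16, and without experiment 2 or 5 the adjusted p was 0.0662 and 0.0843. The 4c call ended without any single experiment (adjusted p = 0.0513 to 0.219).

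Of 11 tested general Wnt targets (16 listed) Apcdd1 alone passed. It encodes a membrane inhibitor of Wnt signals. Its 2c levels were -4.62, -4.57, -4.72, -3.04 and -3.06, and its 8c levels -6.40, -7.69, -8.15, -3.68 and -4.77. It was above background on 5, 3 and 3 arrays of 2c, 4c and 8c, and the groups overlapped through experiment 4. Apcdd1 fell by 2.14 in 8c (SE 0.33, limma adjusted p = 0.00927) with -1.45 in 4c (adjusted p = 0.0749). With normexp correction the 8c difference was -0.52 (adjusted p = 0.0635), and without experiment 1, 2 or 5 the adjusted p was 0.0543 to 0.0603. Jun and Prox1, the brightest of the list, had -0.02 and 0.24 in 4c against 2c (adjusted p = 0.955 and 0.593).

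Markers of other liver cells moved with the fractions too, with 2c the highest. Of 12 tested Kupffer cell genes 11 fell in 8c and 9 in 4c, and the median over the list ranged from -4.55 to -0.79 in 2c, -5.90 to -4.40 in 4c and -6.98 to -5.03 in 8c. Of 9 stellate cell genes 7 fell in 8c and 7 in 4c, with ranges of -4.33 to -1.11, -7.30 to -4.32 and -7.72 to -3.93. Endothelial genes fell in 4 and 3 of 10, with ranges of -4.61 to -3.29, -6.57 to -5.28 and -7.08 to -4.80. Many of these genes entered the tests through 2c, where they were above background, so the counts are a description. Of those above background on all 15 arrays, 2 of 3 Kupffer cell genes (Cd68, Csf1r and Tyrobp), 1 of 2 stellate cell genes (Bgn and Pdgfrb) and 0 of 4 endothelial genes (Cdh5, Eng, Flt4 and Vwf) fell in 8c, and the same numbers in 4c. Of 16 Kupffer cell genes with a probe, 1 was above background on 0 arrays in 2c, 7 in 4c and 5 in 8c. For 16 stellate cell genes these numbers were 5, 8 and 6, and for 14 endothelial genes 2, 7 and 4. Of 3 tested cholangiocyte genes 1 fell in each comparison with 2c and 0 in 8c against 4c, and of 3 lymphocyte genes 0 passed. The part of these cells in the values of Axin2, Nkd1, Tbx3 and the other members was not tested. All 15 tested hepatocyte identity genes stayed short of the threshold in each comparison.

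Pancreatic acinar transcripts were abundant on 6 arrays, namely the 2c and 8c arrays of experiment 1, all arrays of experiment 2 and the 8c array of experiment 3, where the median over 20 acinar genes was above -3, while it was at most -7.00 on the other arrays. Without those 6 arrays the 8c against 2c difference was -0.85 for Axin2, -0.59 for Tbx3 and -0.53 for Lect2, and 0 of the 17030 features passed. Ctnnb1 stayed below 0, Znrf3 had -0.04, and Rnf43 (0.20) and Apc (0.07) were above 0. The 8c arrays left were those of experiments 4 and 5, both on slide 2, so the 8c arrays of slide 1 were left out too. Whether acinar signal, slide or age made these changes was not tested.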

How the data were processed

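Gene expression was measured on 15 one-colour Cy3 arrays, 1 per sample. The deposited array files give spot intensity on a linear scale; the processed signal used is an intensity from which the authors' software had subtracted background and spatial trend, made with Agilent Feature Extraction (11.5.1.1 per the file headers, 10.7.3.1 per the submitters' processing notes), not normalized between arrays. A deposited table of processed values holds the same intensity, with 99.2% of values within 0.01 on the log2 scale, and served as an alternative. RNA was taken with a column kit from sorted cells and labelled with Cy3 after amplification, per the labels' protocols.

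Control spots (4259 of 62976) and outlier spots (264 to 539 per array) were left out. Probes were named through accession (21109), symbol (6684) or synonym (424), or kept the file's name (17381). Log2 signals were scaled to each array's 75th percentile over 16194 probes. Probes above background on at least 5 of 15 arrays were tested, a gene with several under 1 name being represented by the brightest of them. Probes listed only under a transcript name, as for Ctnnb1 and Tcf7, counted as separate features. Models used limma 3.58.1 (lmFit, eBayes) in R 4.3.3 with the experiment as a block, a median of 10.2 total degrees of freedom, and two-sided p-values. The pairing comes from the shared experiment number and age: deviations from the group means correlated at a median of 0.59 within experiments (0.04 to 0.79, 15 pairs) and -0.13 between them. The procedure was tested on simulated data.

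The members and gene lists were chosen with earlier results of these data known. Genes were named by a rule: all members, up to 4 passing genes of each Wnt list or else its 2 brightest, Glul, Slc1a2, Cyp2e1, Ass1 and Alb, and the 3 features most like a member, of which 1 is not reported here. Marker lists are given as counts. No annotation of rn4 was used, so exons and UTRs under the probes are not named. Array number limits the precision. Alternatives covered scaling, background correction, the filter on dim probes, several probes per gene, the block, the slide and left-out arrays. Figures were drawn with matplotlib in Python.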

Additional observations from a re-analysis of the deposited data

Results flagged for a closer look

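In 3 of 33 groups of 5 arrays screened over the member probes, 1 array lay far from the other 4; chance gives such a gap in about 1 of 20 groups. For the Tbx3 probe A_44_P1111586 the 2c array of experiment 1 was lowest at -3.82, with the nearest at -2.40, and the same experiment was also lowest in 4c and in 8c. For Rnf43 experiment 4 was highest in 2c at -4.96, the nearest being -5.89, and highest in 4c at -5.36, the nearest being -6.17; most other Rnf43 values of these fractions were not above background.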

How the results depend on the processing

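The number of members that passed stayed at 0 in each comparison under the other scalings, normexp, the stricter filter, the mean of a gene's probes (with which Fzd4 gained a call in both comparisons with 2c), the deposited value table, the slide, and the sets of arrays chosen after seeing the data (without acinar arrays, without experiments 1 and 2, every probe as a feature). With no filter on dim probes it was 1 for 8c against 2c (Nkd1), which then enters although it was not above background on any 4c or 8c array, so that this count supports nothing about Nkd1. Leaving out an experiment or an array gave 0 to 2 for 8c against 2c: Lect2 without experiment 1, Axin2 and Lect2 without its 2c array. For 4c against 2c and 8c against 4c it gave 0 throughout. With no replicate block the number was 0 in each comparison, with 6 higher and 33 lower over all features for 8c against 2c in place of 138 and 261, 0 and 3 for 4c, and adjusted p-values of 0.93 for Axin2 and 0.675 for Tbx3. Normexp gave 66 higher and 117 lower, no filter 74 and 155, the slide added to the replicate block 82 and 158, and each slide alone 0. Only experiment 3 was split over the slides, so adding the slide to the block was the same fit as leaving out its 8c array. These settings are therefore not separate checks. For 4c against 2c, no filter gave 0. Age interactions were not run within slides or without experiments 1 and 2.

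For 8c against 2c the differences of Axin2 (-1.15 to -0.40), Tbx3 (-0.92 to -0.52), Lect2 (-0.62 to -0.35), Znrf3 (-0.54 to -0.04) and Ctnnb1 (-0.44 to -0.10) stayed below 0 under every setting run. The Ctnnb1 range is that of its named probe. Of 1670 differences of single genes under other settings 1410 kept direction and call, 150 lost a call, 7 gained one and 103 changed sign; none of the sign changes was in a called gene. Causes were not tested. Changed values for 8c against 2c were as follows. Apc had 0.046 with the percentile over all probes, 0.0083 with the median, 0.066 with quantile normalization, 0.015 with the slide added, 0.024 and 0.0012 within slides 1 and 2 and 0.067 without acinar arrays. Rnf43 had 0.20 within slide 2, 0.20 without acinar arrays and 0.18 without experiments 1 and 2. Porcn had 0.065, 0.028 and 0.0039 with those scalings, 0.031 with the slide added and 0.23 within slide 1. Within slide 1 Alb had 0.15 and Tspan12 -0.064. Ass1 had -0.024 within slide 2 and -0.048 without acinar arrays.

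For 4c against 2c Alb had 0.0042, Jun 0.043 and Tspan12 0.048 with the percentile over all probes, and Jun 0.0075 and Tspan12 0.013 with the median. Notum had -0.018 with normexp and Jun 0.17 with the mean of its probes. Within slide 1 Alb had 0.14 and Jun 0.21, and within slide 2 Porcn had -0.12, Prox1 -0.053 and Tspan12 0.054. Apc had 0.0059 without acinar arrays and without experiments 1 and 2.

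For 8c against 4c Rnf43 had -0.034 with normexp, -0.14 with the slide replacing the experiment (no replicate block), -0.083 with the slide added and -0.60 within slide 1. Apc had -0.010 with the mean of its probes and -0.019 without experiments 1 and 2. With the slide added Tbx3 had 0.074 and Znrf3 0.022. Within slide 2 Axin2 had 0.33, Tbx3 0.25 and Znrf3 0.18. Without acinar arrays Axin2 had 0.14, Lect2 0.011, Tbx3 0.22 and Znrf3 0.16, and without experiments 1 and 2 Axin2 had 0.020, Lect2 0.018 and Znrf3 0.030.

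Leaving out an experiment or an array gave, for 8c against 2c, -0.13 to 0.043 for Apc, -0.50 to 0.029 for Rnf43, -0.095 to 0.074 for Porcn and -0.031 to 0.087 for Tspan12. For 4c against 2c it gave -0.18 to 0.12 for Jun, -0.044 to 0.14 for Porcn, -0.011 to 0.32 for Prox1, -0.076 to 0.0094 for Tspan12, -0.18 to 0.084 for Alb and -0.069 to 0.19 for Notum. For 8c against 4c it gave -0.0031 to 0.16 for Apc, -0.098 to 0.047 for Znrf3, -0.26 to 0.25 for Rnf43 and -0.25 to 0.074 for Tbx3. Signals close to background left Lgr5 unmeasured.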
